A study of Mus musculus with 23 samples.

Results

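The genes whose names follow the mouse pattern for proteasome subunits (Psma, Psmb, Psmc, Psmd, Psme, Psmf or Psmg followed by a number) were taken from the RNA-seq tables of Kdm2b fl/fl embryonic stem cells (ESCs). The pattern matched 49 of 23363 gene names, and 48 of them were expressed highly enough to be tested, among 12997 genes tested in all. Of the 49, 48 are proteasome subunits, assembly chaperones or regulators by name, and Psmc3ip, a meiotic recombination factor, only shares the letters.

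The cells were MS12 KDM2Bfl/fl ES cells at passage p10-p20, a single line grown on inactivated feeder fibroblasts and left without feeders overnight before the experiment. In all 6 RNA-seq samples both Kdm2b alleles carried loxP sites around the exon for most of the ZF-CxxC domain, the part of KDM2B that binds CpG-rich DNA, and a tamoxifen-activated Cre recombinase (ERT2Cre) was expressed from Rosa26. The 3 untreated samples received no 4-hydroxytamoxifen, and the 3 treated samples (called tamoxifen) received it for 72 hr, which is meant to delete this exon. The dose is 800 nM in the protocol attached to the samples but 800 µM in the description of the series. Groups follow the sample titles. The deposited file names point to the opposite assignment, under which each fold change given here would keep its size and change its sign, so that genes given as higher would be lower. KDM2B, RING1B and SUZ12 ChIP-seq samples of the same series were not analysed here.

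The 26S proteasome degrades proteins that carry ubiquitin chains. Its 20S core is a barrel of outer alpha rings, which gate the entrance, and inner beta rings, in which Psmb5, Psmb6 and Psmb7 supply the catalytic sites. The 19S cap consists of a base, whose ATPases unfold the substrate, and a lid, which removes ubiquitin. Under interferon, or constitutively in immune cells, the catalytic subunits are replaced by Psmb8, Psmb9 and Psmb10 to form the immunoproteasome, and the PA28 activator made of Psme1 and Psme2 can take the place of the cap. Pluripotent stem cells are known for high proteasome activity, and the genes of the constitutive complex are known to be expressed together.

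No proteasome gene passed the test when samples were compared without regard to replicate number. The 6 genes that passed within replicate number were Psmb8, Psmb10, Psme1, Psme2 and Psmg1, called higher (4.33% of all genes), and Psmb9, called lower (6.06%). The promoter windows of these genes are shown because they are the members whose difference was called, and because 2 of the windows lie in the cluster of antigen-processing genes on chromosome 17. Each window runs from 250 bases before to 50 bases after a RefSeq start site (table build GRCm38.p6), 5′ to 3′ on the strand of the gene. Positions are those of the single exact match of each window in the mm9 assembly, the build of the deposited tables. Capitals mark matches, on either strand, to 6 motifs. These were the antioxidant response element core TGACNNNGC, the CCAAT box, the ETS-bound core CCGGAAG, the GC box core GGGCGG, the GAS element core TTCNNNGAA bound by STAT factors, and the core of the interferon-stimulated response element (ISRE), which is a pair of GAAA blocks spaced by 2 bases.
Psmb8, chr17:34334890-34335189, plus strand: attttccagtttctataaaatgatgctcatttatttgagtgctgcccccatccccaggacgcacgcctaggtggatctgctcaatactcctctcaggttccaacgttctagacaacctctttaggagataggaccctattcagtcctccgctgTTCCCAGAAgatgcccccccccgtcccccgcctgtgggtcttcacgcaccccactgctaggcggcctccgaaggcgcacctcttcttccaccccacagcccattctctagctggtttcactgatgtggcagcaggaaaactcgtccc
Psmb9, chr17:34324226-34324525, minus strand: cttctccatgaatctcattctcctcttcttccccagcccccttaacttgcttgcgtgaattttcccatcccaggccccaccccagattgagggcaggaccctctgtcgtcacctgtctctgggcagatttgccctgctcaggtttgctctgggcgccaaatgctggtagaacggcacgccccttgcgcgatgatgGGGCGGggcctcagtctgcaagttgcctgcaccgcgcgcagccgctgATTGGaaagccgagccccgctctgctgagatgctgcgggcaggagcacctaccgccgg
Psmb10, chr8:108462243-108462542, minus strand: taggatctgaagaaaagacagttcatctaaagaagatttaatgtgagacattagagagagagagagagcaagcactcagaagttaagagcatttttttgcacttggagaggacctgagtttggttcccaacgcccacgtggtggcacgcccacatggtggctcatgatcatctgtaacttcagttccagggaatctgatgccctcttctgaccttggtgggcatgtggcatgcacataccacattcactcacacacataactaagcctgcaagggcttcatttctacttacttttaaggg
Psme1, chr14:56197081-56197380, plus strand: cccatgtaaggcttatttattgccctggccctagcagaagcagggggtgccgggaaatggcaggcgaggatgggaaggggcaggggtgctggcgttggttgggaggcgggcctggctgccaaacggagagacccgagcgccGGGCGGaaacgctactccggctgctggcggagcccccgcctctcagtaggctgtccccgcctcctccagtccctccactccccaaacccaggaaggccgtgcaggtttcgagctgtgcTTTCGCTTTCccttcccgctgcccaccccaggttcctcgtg
Psme2, chr14:56209889-56210188, minus strand: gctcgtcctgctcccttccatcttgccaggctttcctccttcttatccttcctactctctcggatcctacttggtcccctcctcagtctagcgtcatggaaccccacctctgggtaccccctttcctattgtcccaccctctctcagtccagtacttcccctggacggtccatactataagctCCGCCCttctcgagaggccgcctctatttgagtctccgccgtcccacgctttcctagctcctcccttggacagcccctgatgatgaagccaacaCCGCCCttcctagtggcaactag
Psmg1, chr16:96212518-96212817, minus strand: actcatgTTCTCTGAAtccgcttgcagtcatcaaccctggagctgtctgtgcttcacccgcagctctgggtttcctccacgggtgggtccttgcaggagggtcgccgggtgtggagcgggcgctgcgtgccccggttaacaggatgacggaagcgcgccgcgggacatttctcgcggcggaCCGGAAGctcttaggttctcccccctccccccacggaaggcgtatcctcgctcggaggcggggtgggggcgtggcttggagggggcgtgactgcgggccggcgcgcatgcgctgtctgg

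None of the 6 motifs was in all of these windows. The Psmb8 window held TTCNNNGAA at -97 from the start site, and Psmg1 held the same letters at -243 together with CCGGAAG at -69. Psme1 held the ISRE core at 10 on the opposite strand and GGGCGG at -109. In Psmb9 the matches were GGGCGG at -55 and CCAAT at -8 on the opposite strand. Psme2 held 2 copies of GGGCGG on the opposite strand, and Psmb10 held no match. Psmb9 and Tap1, a subunit of the peptide transporter of antigen presentation, are transcribed away from each other from start sites 226 bp apart, so that their 300 bp windows share 275 bp.

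Promoter windows were matched for 41 of the 49 genes (44 windows). Psma8, Psmb1, Psmb2, Psmb7, Psmc3, Psmd3, Psmd7 and Psmg2 were not matched. CCGGAAG was found in 36.6% of these genes against 8.86% of the 32851 windows in the table, and GGGCGG in 56.1% against 35.7%. CCAAT was present in 36.6% against 37.4%. TGACNNNGC, part of the element through which NFE2L1 and NFE2L2 act on proteasome genes, was present in 14.6% (Psmb5, Psmb6, Psmc6, Psmd12, Psmd9 and Psme4) against 12.4%. The remaining 2 motifs were chosen after the fold changes had been seen. The ISRE core occurred in 12.2% of the genes (Psmb3, Psmd4, Psmd9, Psme1 and Psmg4) against 3.44% of all windows. TTCNNNGAA, which reads the same on both strands, occurred in 7.32% (Psmb8, Psmd2 and Psmg1) against 8.3%. A window counted as CpG-rich where its GC content was 55% or more and its CpG dinucleotides reached 0.6 of the number its base composition predicts. This held for 21 of 41 genes (51.2%), against 30.3% of all windows, and among the 6 genes shown it held for Psmg1 alone. These shares are descriptions without a test, and a gene with several windows had more than 1 chance to hold a motif.

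Expression is given as FPKM, which divides the fragments of a gene by gene length and by the sequencing depth of the library. FPKM values summed to between 549379 and 1045707 per sample, of which loci shorter than 300 bp held 23.9% to 67.7%, and the tables hold no read counts. Kdm2b, the targeted gene, had 27.0, 21.5 and 27.7 FPKM in untreated replicates 1, 2 and 3, and 19.9, 21.9 and 25.04 FPKM in the tamoxifen replicates. Its log2 fold change of -0.19 (SE 0.21, limma adjusted p = 0.999 without and 0.31 with the block) was no larger than the differences among samples of a group, and a value for the whole gene does not resolve the deleted exon. ESC markers were high, with Pou5f1 between 369 and 832 FPKM and Nanog between 104 and 205 FPKM, and none of the 8 listed was called in either fit. Their median log2 fold change was 0.20, and 5 of the 8 were higher in all 3 replicate numbers (24.8% of all genes tested). All but Zfp42 had a mean of at least 50 FPKM. Among all genes at that level the median was 0.12, and 45.9% were higher in all 3. Nanog had 188, 104 and 153 FPKM in the untreated and 203, 194 and 205 FPKM in the tamoxifen replicates, without overlap (3.09% of all genes). Feeder fibroblast markers were also detected, with Col1a1 at 15.6, 40.3 and 31.2 FPKM in the untreated and 19.3, 38.2 and 29.7 FPKM in the tamoxifen replicates, and none of the 9 tested was called. In such bulk samples, fewer cells of a type and less RNA per cell cannot be told apart.

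Most proteasome genes were expressed at high level. The 31 constitutive subunits of the 20S core and 19S cap had mean FPKM values in the untreated samples between 16.3 for Psma3 and 284 for Psmb4, with a median of 126. The assembly chaperones were lower (median of the means 25.3 FPKM), as were Psmf1 (10.0 FPKM), which encodes the inhibitor PI31, and the inducible catalytic subunits (3.27 to 18.0 FPKM). Psma3 overlaps a second annotated gene, 3110056K07Rik, so its reads may have been divided between them. The same holds for Psma4 (AY074887), Psmb5 (Mir686), Psmc3ip (Mlx) and Psmd1 (Htr2b), and the ends of Psme1 and Emc9 touch.

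**Figure D1:**
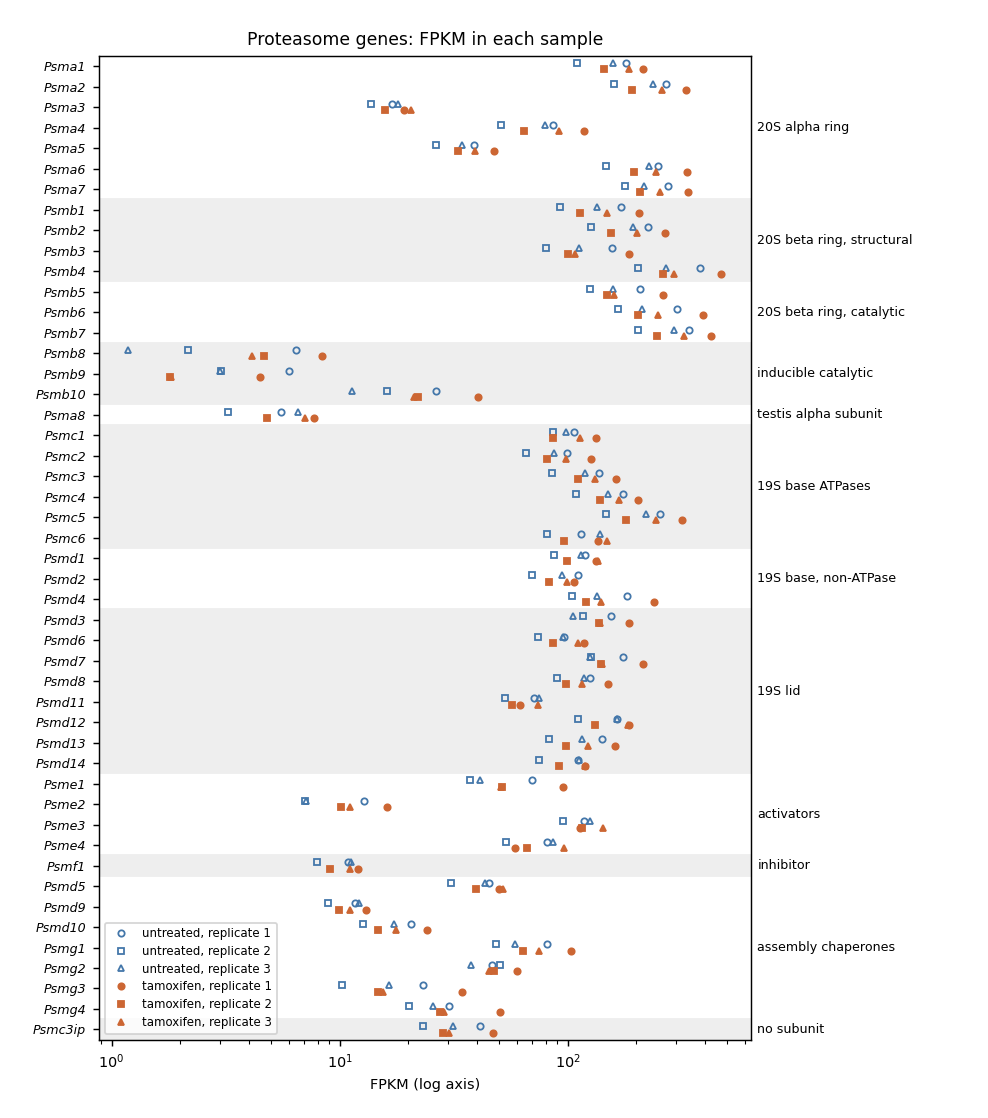
FPKM of the 48 tested proteasome genes in each of the 6 samples on a log axis, grouped by role; open blue symbols are untreated and filled orange symbols tamoxifen samples, with a shape for each replicate number. Most genes lie near 100 FPKM, and the inducible catalytic subunits lie below their constitutive counterparts. Replicate 2 (squares) is lowest for 42 of 48 genes in the untreated samples and for 42 in the tamoxifen samples, which are not all the same genes.

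The replicate number separated these genes more than the treatment did. The median FPKM of the 48 genes was 111, 77.6 and 102 in untreated replicates 1, 2 and 3, and 122, 89.2 and 112 in tamoxifen replicates 1, 2 and 3. Replicate 2 had the lowest value of its group for 42 of 48 genes in the untreated samples. It was also lowest for 42 in the tamoxifen samples, though not for all the same genes. On the log2(FPKM + 0.1) scale, the median standard deviation over replicate numbers was 0.36, whereas the median size of the change with tamoxifen was 0.24 and the changes seen in the 3 numbers varied by a median standard deviation of 0.12. The share of FPKM in loci shorter than 300 bp also followed the number, at 23.9%, 67.7% and 54.7% in the untreated and 25.6%, 61.6% and 42.3% in the tamoxifen replicates. This share was highest in replicate 2, where proteasome genes were lowest. Col1a1 was also highest there, as was the summed FPKM of the 10 listed feeder markers (122 in untreated and 117 in tamoxifen replicate 2). Not every marker followed. Prrx1 was highest in replicate 3 and Twist2 lowest in replicate 2, both in the untreated and in the tamoxifen samples. The part of short loci and of feeder cells in the levels was not tested.

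In the comparison without regard to replicate number, no proteasome gene was called. limma with Benjamini-Hochberg adjustment called 3 genes higher (0.0231%) and 1 lower (0.00769%) among all 12997, none of them among the 48, and no proteasome gene reached an unadjusted p of 0.05 in either direction (all genes: 1.85% higher and 2.94% lower). The lowest adjusted p of the 48 was 0.999. For none of them did the 3 samples of one group lie wholly above those of the other, which was the case for 3.09% of all genes in the higher and 5.4% in the lower direction.

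Within replicate numbers, most of the genes were slightly higher after tamoxifen. The difference was positive for 43 of 48 genes in replicate 1, 46 in replicate 2 and 40 in replicate 3, and 36 of 48 were higher in all 3, compared with 24.8% of all genes tested. Only Psmb9 was lower in all 3, compared with 28.2% of all genes. The median log2 fold change of the 48 genes was 0.23, against -0.02 over all genes tested. By replicate number it was 0.27, 0.29 and 0.16 for proteasome genes and -0.06, 0.04 and -0.02 for all genes. Highly expressed genes as a whole moved the same way. Among the 1635 genes with a mean of at least 50 FPKM the median was 0.12 and 45.9% were higher in all 3 numbers, where 27 of the 33 proteasome genes at this level were. A positive mean difference was found for 31 of these 33, against 73.5% of all genes at this level. These genes share samples and regulation and are not independent, so no p is attached to the medians.

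**Figure D2:**
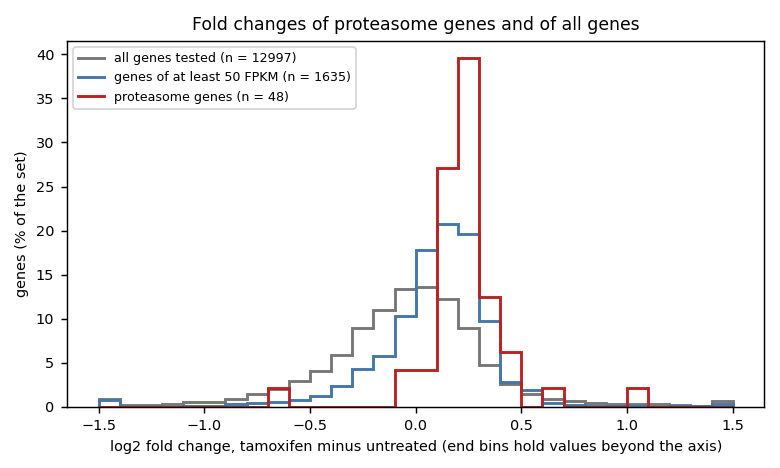
Percent of genes in each 0.1-wide bin of log2 fold change, tamoxifen minus untreated, for all 12997 genes tested (grey), the 1635 genes of at least 50 FPKM (blue) and the 48 proteasome genes (red). The proteasome genes form a narrow peak around their median of 0.23, to the right of the medians of all genes (-0.02) and of highly expressed genes (0.12).

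The direction held under other scalings and the size did not. The number of proteasome genes with a positive mean difference was 45 of 48 as deposited (47.2% of all genes), 47 after scaling each sample to TPM (60.4%), 45 after quantile normalization (51.9%) and 44 when loci under 300 bp were left out before scaling (35.6%). In the same order the median of the 48 genes was 0.23, 0.33, 0.12 and 0.14, and that of all genes -0.02, 0.08, 0.01 and -0.11. The distance between both medians was smallest after quantile normalization. With unpaired groups the size also rested on single samples, since the median of the 48 genes was 0.05 without untreated replicate 2, 0.08 without tamoxifen replicate 1, and 0.39 without either untreated replicate 1 or tamoxifen replicate 2.

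With the replicate number as a block, 5 proteasome genes were called higher and 1 lower, where 4.33% of all genes were called higher and 6.06% lower. At an unadjusted p of 0.05, 24 of 48 were higher (13.4% of all genes) and 1 lower (16.4%). Among genes of at least 50 FPKM, 2 of 33 proteasome genes were called higher and 6.3% of all genes, so that the share called was near the background at this level. None of the 31 constitutive subunits was called, and each called gene had a mean below the 126 FPKM that is the median level of these subunits. The largest change among the 31 was 1.26-fold (Psma4). In simulated data with 200 of 12997 genes changed 1.2- or 1.5-fold, the fits with and without the block recovered none. With the block the data held more calls (563 higher and 787 lower), so the adjustment was less strict there, and Psmg1 was called at 1.29-fold. The simulation therefore does not give the smallest change that the fit with the block could call. A missing call at this size still does not show an unchanged level. All 6 calls were lost without replicate 2 (adjusted p between 0.082 and 0.22), without replicate 3 (between 0.060 and 0.15) and without the filter on low values (between 0.17 and 0.33). Their log2 fold changes kept their sign, and without replicate 2, where the fit rests on 4 samples, they were 1.04 for Psmb8, -0.55 for Psmb9, 0.75 for Psmb10, 0.38 for Psme1, 0.48 for Psme2 and 0.35 for Psmg1. All 6 calls remained without replicate 1. Without the mean-variance trend, Psmb9 and Psmb10 were still called.

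**Figure D3:**
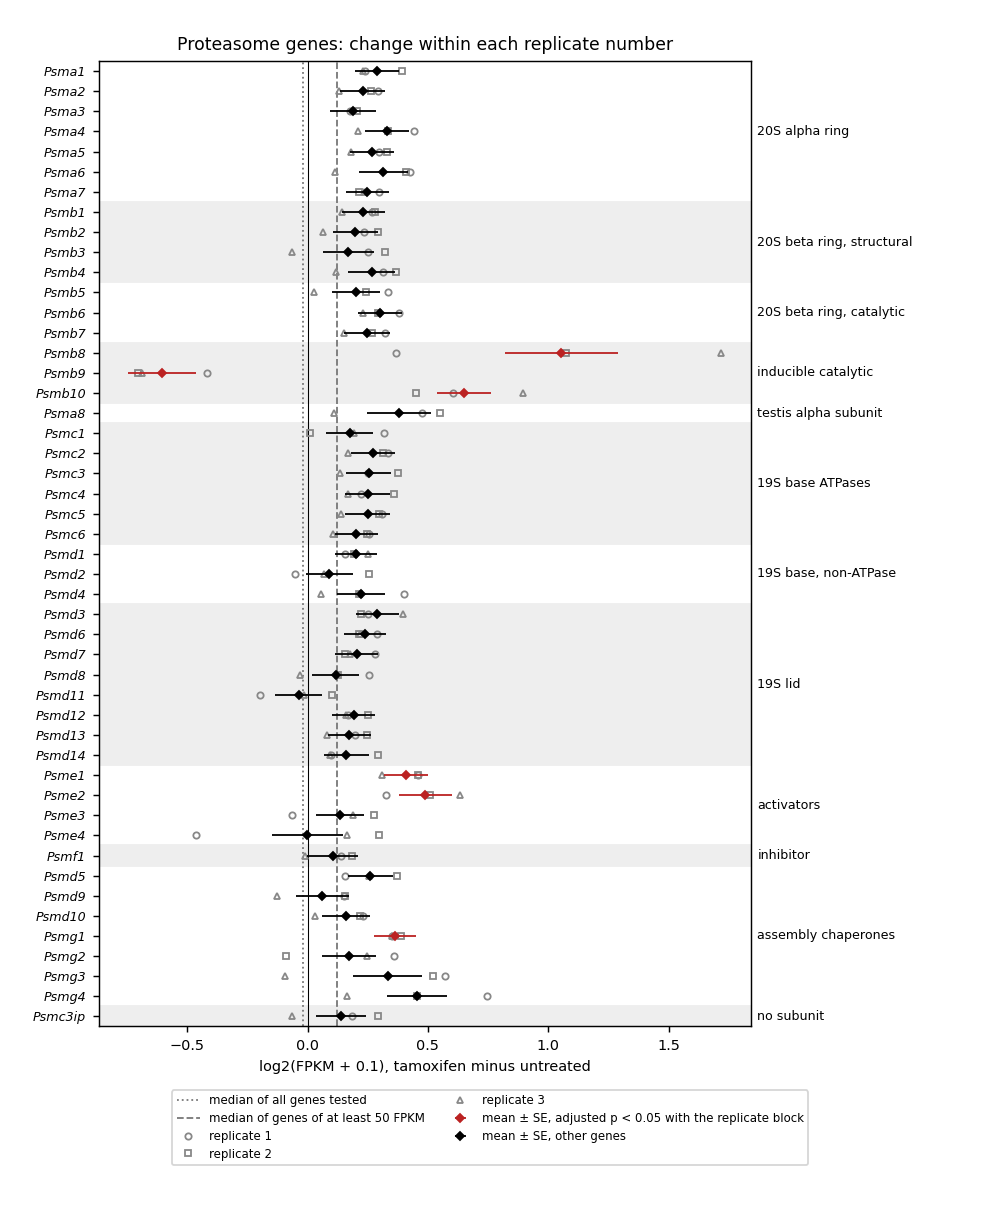
Difference in log2(FPKM + 0.1) between tamoxifen and untreated samples for each tested proteasome gene, by role; open symbols are the 3 replicate numbers, and diamonds their mean with the standard error from the fit with the replicate block (red where the adjusted p was below 0.05). Constitutive subunits cluster between -0.04 and 0.33, while Psmb8 and Psmb10 lie to the right and Psmb9 to the left.

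The 7 alpha subunits, which form the outer rings of the core, had log2 fold changes between 0.19 and 0.33, and all 7 were higher in all 3 replicate numbers. The largest belonged to Psma4, with 86.6, 50.8 and 79.5 FPKM in the untreated and 118, 64.1 and 92.0 FPKM in the tamoxifen replicates. The groups overlapped, and the log2 fold change of 0.33 (SE 0.093 with the block) had a limma adjusted p of 0.063 with the block. The 4 structural beta subunits lay between 0.17 and 0.27, with 3 of 4 higher in all numbers, the exception being Psmb3 in replicate 3. None of these 11 genes was called.

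The 3 constitutive catalytic subunits were each higher within all 3 numbers and none was called. Psmb5, which carries the chymotrypsin-like activity, had 208, 126 and 157 FPKM in untreated and 262, 149 and 160 FPKM in tamoxifen replicates, a log2 fold change of 0.20 (SE 0.099, limma adjusted p = 0.22 with the block). Psmb6, the caspase-like subunit, had 301, 166 and 211 FPKM and then 392, 203 and 248 FPKM, a change of 0.30 (SE 0.092, limma adjusted p = 0.078 with the block). Psmb7, the trypsin-like subunit, had 341, 204 and 292 FPKM and then 426, 246 and 324 FPKM, a change of 0.25 (SE 0.094, limma adjusted p = 0.13 with the block). For each of the 3, replicate 1 was highest and replicate 2 lowest in both groups, and the groups overlapped.

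The 19S cap showed the same small differences. The 6 ATPases of the base, Psmc1 to Psmc6, lay between 0.17 and 0.27 (log2) and were all higher in all 3 numbers. Of the other base genes, Psmd1 and Psmd4, the latter a ubiquitin receptor, had 0.20 and 0.22. Psmd2 had 110, 69.4 and 94.4 FPKM in the untreated and 106, 83.0 and 99.1 FPKM in the tamoxifen replicates, a log2 fold change of 0.09 (SE 0.098, limma adjusted p = 0.56 with the block). Of the 8 lid subunits, 6 were higher in all 3 numbers. Psmd14, the deubiquitinating enzyme of the lid, had a log2 fold change of 0.16 (limma adjusted p = 0.28 with the block), and Psmd3 had the largest of the lid, 0.29 (limma adjusted p = 0.084 with the block).

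Of the 31 constitutive genes, 27 were higher in all 3 numbers and 30 had a positive mean difference. The gene with a negative mean difference was Psmd11, a scaffold subunit of the lid. Its values were 71.1, 52.9 and 74.9 FPKM in the untreated and 62.0, 56.8 and 74.2 FPKM in the tamoxifen replicates, lower in numbers 1 and 3 and higher in number 2. The log2 fold change was -0.04 (SE 0.097, limma adjusted p = 0.83 with the block), and it was 0.07 after scaling to TPM. Whether Psmd11 differed from the other subunits was not tested.

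The inducible catalytic subunits did not move together. Psmb8, the counterpart of Psmb5, had 6.46, 2.16 and 1.19 FPKM in untreated replicates 1, 2 and 3, and 8.38, 4.66 and 4.13 FPKM in tamoxifen replicates 1, 2 and 3. It was higher within every number, but untreated replicate 1 lay above 2 of the tamoxifen samples. The means were 3.27 ± 2.81 and 5.72 ± 2.32 FPKM (SD, n = 3), and the log2 fold change was 1.05, the largest of the 48 genes (SE 0.56, limma adjusted p = 0.999; with the block SE 0.24, limma adjusted p = 0.033). By number it was 0.37, 1.07 and 1.72. Compared without regard to number, it was 1.70 without untreated replicate 1 and 0.53 without untreated replicate 3. Psmb10, the counterpart of Psmb7, had 26.5, 16.2 and 11.3 FPKM and then 40.3, 22.1 and 21.2 FPKM. It too was higher within every number with overlapping groups, at means of 18.0 ± 7.73 and 27.9 ± 10.8 FPKM (SD, n = 3). Its log2 fold change was 0.65 (SE 0.37, limma adjusted p = 0.999; with the block SE 0.11, limma adjusted p = 0.016). In the unpaired comparison it was 0.36 without untreated replicate 3 and 0.35 without tamoxifen replicate 1.

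Psmb9, the counterpart of Psmb6, went the other way. Its values were 5.98, 3.02 and 2.98 FPKM in the untreated and 4.45, 1.81 and 1.81 FPKM in the tamoxifen replicates. It was lower within every number, although tamoxifen replicate 1 lay above untreated replicates 2 and 3. The means were 3.99 ± 1.72 and 2.69 ± 1.52 FPKM (SD, n = 3), a log2 fold change of -0.60 (SE 0.43, limma adjusted p = 0.999; with the block SE 0.14, limma adjusted p = 0.037). Unpaired, it was -0.28 without untreated replicate 1, and -1.02, -0.39 and -0.40 without tamoxifen replicates 1, 2 and 3 in turn. The calls of Psmb8 and Psmb10 remained after each of the 3 other scalings. That of Psmb9 was lost after scaling to TPM (adjusted p = 0.32) and after quantile normalization (adjusted p = 0.073).

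Ratios within a sample do not depend on the scaling of that sample. Psmb9 amounted to 1.98%, 1.82% and 1.41% of Psmb6 in the untreated and to 1.13%, 0.894% and 0.730% in the tamoxifen replicates. The groups did not overlap (log2 difference -0.93, p = 0.1 by a two-sided exact permutation test, which cannot give less with 3 samples a group). Psmb8 amounted to 108%, 71.6% and 39.7% of Psmb9 in the untreated and to 188%, 257% and 228% in the tamoxifen replicates, again without overlap (log2 difference 1.72, exact permutation p = 0.1). These 2 genes had the largest and the lowest log2 fold change of the 48, so a difference in their ratio follows from those values and is no separate result. The difference in the ratio of Psmb9 to Psmb6 likewise follows from the log2 fold changes of Psmb9 (-0.60) and Psmb6 (0.30). The ratio of Psmb8 to Psmb5 was 3.11%, 1.72% and 0.754% and then 3.19%, 3.13% and 2.58% (exact permutation p = 0.2), higher in all 3 numbers by 0.04, 0.87 and 1.77 on the log2 scale. The ratio of Psmb10 to Psmb7 was 7.77%, 7.92% and 3.88% and then 9.46%, 8.99% and 6.53% (exact permutation p = 0.4), also higher in all 3, by 0.28, 0.18 and 0.75. These ratios were among 7 computed, and with the smallest possible p above 0.05 none could pass, before or after adjustment. The permutations leave the replicate numbers out of account.

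**Figure D4:**
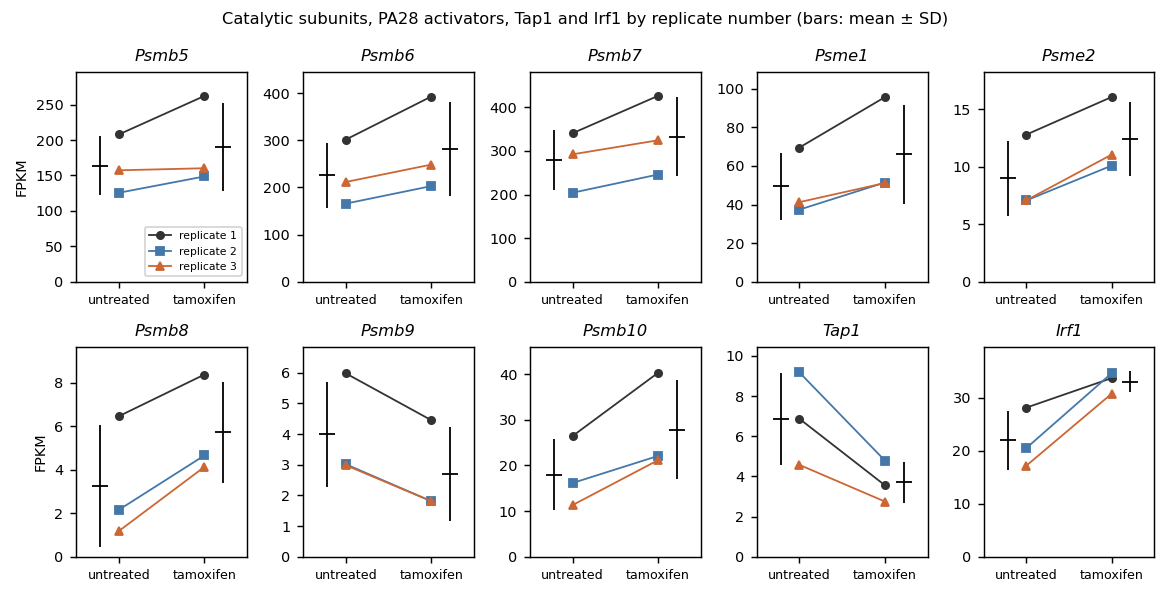
FPKM of the constitutive (Psmb5, Psmb6, Psmb7) and inducible (Psmb8, Psmb9, Psmb10) catalytic subunits, the PA28 genes Psme1 and Psme2, and Tap1 and Irf1, with a line for each replicate number from untreated to tamoxifen; horizontal ticks with bars are the mean ± SD of 3 samples. Lines go up for all genes but Psmb9 and Tap1, whose 3 lines go down.

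Genes of the interferon response and antigen presentation, measured beside these subunits, also moved in different directions. Of the 9 listed, 8 were tested, and with the block 1 was called higher and 2 lower, with no call without it. Tap1, which shares its promoter region with Psmb9, had 6.86, 9.17 and 4.57 FPKM in the untreated and 3.56, 4.79 and 2.75 FPKM in the tamoxifen replicates, a log2 fold change of -0.86 (SE 0.12, limma adjusted p = 0.0095 with the block). B2m, the light chain of MHC class I, had 53.3, 107 and 103 FPKM and then 38.8, 66.4 and 77.9 FPKM, a change of -0.51 (SE 0.097, limma adjusted p = 0.02 with the block). Irf1, a transcription factor of the interferon response, had 28.1, 20.5 and 17.2 FPKM and then 33.7, 34.7 and 30.8 FPKM, a change of 0.62 (SE 0.13, limma adjusted p = 0.027 with the block). Both H2-K1 and H2-D1, which encode class I heavy chains, were lower in replicates 1 and 2 and not in 3, and Nlrc5, their transactivator, was at or below 0.207 FPKM in every sample and not tested. The summed FPKM of the list ranged from 196 to 313 in the untreated and from 160 to 237 in the tamoxifen samples. Their part in the values of Psmb8, Psmb9 and Psmb10 was not tested.

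Of the activators, the PA28 pair was called with the block and the others were not. Psme1 had 69.5, 37.4 and 41.3 FPKM in the untreated and 95.6, 51.4 and 51.1 FPKM in the tamoxifen replicates, with overlapping groups and a log2 fold change of 0.41 (SE 0.34, limma adjusted p = 0.999; with the block SE 0.091, limma adjusted p = 0.032). Psme2 had 12.8, 7.08 and 7.09 FPKM and then 16.1, 10.1 and 11.1 FPKM, a change of 0.49 (SE 0.31, limma adjusted p = 0.999; with the block SE 0.11, limma adjusted p = 0.034). Both were higher within every number, and untreated replicate 1 lay above tamoxifen replicates 2 and 3. Unpaired, the change of Psme1 was 0.68, 0.24 and 0.11 without untreated replicate 1, untreated replicate 2 and tamoxifen replicate 1, and that of Psme2 was 0.77 without untreated replicate 1 and 0.29 without tamoxifen replicate 1. The mouse genome holds a near-identical copy of Psme2, named Psme2b, so the Psme2 values are uncertain. Neither call remained in every scaling: Psme1 was lost in all 3 (adjusted p between 0.053 and 0.099), and Psme2 in both scalings to TPM (adjusted p = 0.11 and, without short loci, 0.067).

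Psme3, which forms the nuclear PA28 gamma ring, had 118, 95.4 and 126 FPKM in the untreated and 113, 116 and 143 FPKM in the tamoxifen replicates, a log2 fold change of 0.13 (SE 0.10, limma adjusted p = 0.40 with the block). Psme4, the PA200 activator, had 81.4, 53.9 and 85.8 FPKM and then 59.0, 66.3 and 96.2 FPKM. It was lower in replicate 1 by 0.46 and higher in the other two by 0.30 and 0.16 on the log2 scale, and its mean difference was near 0 (SE 0.15 with the block). Psmf1, the inhibitor, had 10.9, 7.96 and 11.2 FPKM and then 12.0, 9.06 and 11.1 FPKM, a change of 0.10 (limma adjusted p = 0.53 with the block).

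Of the 7 assembly chaperones, 4 were higher within all 3 numbers and Psmg1 was called with the block. Psmg1, which pairs with Psmg2 in assembling the alpha ring, had 81.1, 48.6 and 58.6 FPKM in the untreated and 103, 63.8 and 74.7 FPKM in the tamoxifen replicates. The change was even across numbers (0.35, 0.39 and 0.35), with overlapping groups and a log2 fold change of 0.36 (SE 0.28, limma adjusted p = 0.999; with the block SE 0.087, limma adjusted p = 0.04). Unpaired, it was 0.56, 0.20 and 0.17 without untreated replicate 1, untreated replicate 2 and tamoxifen replicate 1. It was no longer called under any of the 3 other scalings (adjusted p between 0.077 and 0.14). Its partner Psmg2 had 46.5, 50.7 and 37.9 FPKM and then 59.7, 47.6 and 45.0 FPKM, lower in replicate 2.

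The chaperones Psmg3 and Psmg4, which also act on the alpha ring, differed less evenly across numbers. Psmg4 had 30.0, 20.1 and 25.7 FPKM in the untreated and 50.4, 27.6 and 28.8 FPKM in the tamoxifen replicates, a log2 fold change of 0.45 (SE 0.12, limma adjusted p = 0.059 with the block). Psmg3 had 23.1, 10.3 and 16.5 FPKM and then 34.4, 14.8 and 15.5 FPKM, lower in replicate 3, with a log2 fold change of 0.33 (SE 0.14, limma adjusted p = 0.17 with the block). The chaperones of the 19S base, Psmd5, Psmd9 and Psmd10, had log2 fold changes of 0.26, 0.06 and 0.16. Psmd9 had 11.7, 8.91 and 12.2 FPKM and then 13.0, 9.95 and 11.1 FPKM, within the spread of each group.

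Members restricted to other tissues were low or at the limit of the tables. Psma8, the alpha subunit of testis proteasomes, had 5.54, 3.24 and 6.54 FPKM in the untreated and 7.74, 4.80 and 7.07 FPKM in the tamoxifen replicates, a log2 fold change of 0.38 (SE 0.13, limma adjusted p = 0.11 with the block). This was between 1.81% and 3.04% of Psma7, the subunit it replaces, in the 6 samples, and the ranges of the groups overlapped. Psmb11, the thymus catalytic subunit, did not exceed 0.00973 FPKM in any sample, was listed at 0 in 3 of the 6, and was the 1 member not tested. Psmc3ip, the gene that is no subunit, had 41.2, 23.1 and 31.5 FPKM and then 46.9, 28.3 and 30.1 FPKM, a change of 0.14 (SE 0.10, limma adjusted p = 0.41 with the block).

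None of the other genes listed for the ubiquitin and proteasome pathway was called in either fit. Of 30 listed, Paaf1 was not matched and 29 were tested. In all 3 replicate numbers 11 of the 29 were higher and 3 lower, against 24.8% and 28.2% of all genes tested. Among all genes of at least 50 FPKM, 45.9% were higher in all 3. The log2 fold changes of the 29 ranged from -0.46 to 0.52 with a median of 0.11. The median was -0.02 over all genes tested and 0.12 over genes of at least 50 FPKM, a level that many of the 29, such as Fbxo7 and Uba6, did not reach. Of the 10 factors that bind the proteasome, 6 were higher in all numbers, among them the deubiquitinating enzymes Uchl5 (0.27, limma adjusted p = 0.11 with the block) and Usp14 (0.24, limma adjusted p = 0.14 with the block) and the maturation factor Pomp (0.13). AI314180, another gene of this list, was lower in all 3 numbers (-0.38, limma adjusted p = 0.11 with the block). Vcp, the ATPase that extracts ubiquitinated proteins, had 0.23 (limma adjusted p = 0.14 with the block). Of the genes that control proteasome transcription, Nfe2l1 had 76.8, 110 and 67.1 FPKM in the untreated and 79.5, 98.5 and 72.0 FPKM in the tamoxifen replicates, without a shared direction across numbers. Nfe2l2 had 39.8, 32.2 and 52.1 FPKM and then 32.5, 28.8 and 40.9 FPKM, lower in all 3 numbers (log2 fold change -0.27, limma adjusted p = 0.11 with the block). Nfe2l3, a related factor at low level, had 1.103, 1.04 and 0.267 FPKM and then 1.35, 1.45 and 0.554 FPKM. It was higher in all 3 numbers with overlapping groups, and its log2 fold change of 0.52 (SE 0.22, limma adjusted p = 0.16 with the block) was the highest of the list. The ubiquitin-activating enzyme Uba6 had the lowest value of the list, -0.46, set largely by replicate 1 (-1.17).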

How the data were processed

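PolyA+ RNA was made into strand-specific libraries and sequenced from both ends. The authors aligned the 51 bp reads to mm9 with TopHat2 and obtained expression values with Cuffdiff 2.1.1 on refGene models; the deposited values are FPKM per gene row, with an interval and a status. FPKM were summed over rows that share a name, and 6 names with a failed row were dropped, which was decided after seeing the files. Genes with at least 0.5 FPKM in at least 3 of 6 samples were fitted with limma 3.58.1 (R 4.3.3) on log2(FPKM + 0.1), a scale that understates changes of low genes, with eBayes trend and Benjamini-Hochberg adjustment over all 12997 genes at 0.05. The fit was run without and with replicate number as a block, since same-numbered samples, numbered in the labels, deviated together from their group means (correlations across genes 0.54, 0.61 and 0.51). Whether replicates were separate cultures is not stated beyond biological triplicates, so p-values measure the spread between these samples. Ratios were compared by exact permutation. The members and lists were chosen with earlier results of these data known. Every member is accounted for by role; named with values are members called in either fit, the catalytic, tissue-restricted and regulatory genes, and the 5 largest and 5 smallest changes; Psma4, Psmd3, Psmd14, Psmg2, Psmg3 and the pathway genes were added after their values were seen. Alternatives were pseudocounts of 1 and 0.01, TPM scaling (also without loci under 300 bp), quantile normalization, the highest row per name, no filter, at least 1 FPKM in all 6 samples, no trend, failed rows kept as 0 (added later), and leaving out replicates. The fits were tested on simulated data in which 200 of 12997 genes were changed. At 1.2- and 1.5-fold neither fit recovered any of them. At 2-fold the fit with the block recovered 77%, with 8 false calls, and the fit without it 0%. With the block more genes were called in the data (563 higher and 787 lower), so these shares do not carry over to that fit. Read depth is unknown; steps in 1898 low rows gave depths of 0.655 to 1 relative to untreated replicate 1. The deposited FPKM intervals were not used, since 206 of 294 member values lay above the upper limit of their own interval. Calculations used Python 3.11.15, pandas 2.3.3, numpy 2.4.6 and scipy 1.17.1. Promoter windows came from RefSeq.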

Additional observations from a re-analysis of the deposited data

How the results depend on the processing

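The median log2 fold change of the 48 proteasome genes kept its sign under every alternative run. It was 0.331 with TPM scaling, 0.123 with quantile normalization, 0.142 with TPM scaling without short loci, and between 0.0536 (without untreated replicate 2) and 0.389 (without untreated replicate 1) when single samples were left out. Without the block the numbers of proteasome genes called stayed at 0 and 0, against 5 higher and 1 lower with the replicate block. Over all genes the block gave 563 higher and 787 lower. Without it, leaving out samples gave 2 to 5 higher and 0 to 7 lower, no filter 1 and 0, at least 1 FPKM in all samples 0 and 0, and a pseudocount of 1 0 lower.

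With the replicate block, proteasome genes called higher numbered 2 with TPM scaling, 3 with quantile normalization, 2 with TPM scaling without short loci, 0 without a filter, 9 with at least 1 FPKM in all 6 samples, 1 without a trend, and 0 to 5 when a replicate number was left out. The number called lower was 0 with TPM scaling, quantile normalization or no filter, and 0 to 1 when a number was left out. Without replicate 2 all 6 calls were lost, and without replicate 3 they were replaced by Psmg4 alone. Over all genes the block gave 328 higher without a trend, 336 lower with TPM scaling, 1190 lower with TPM scaling without short loci, 0 and 0 without a filter, and 36 to 744 higher and 43 to 1011 lower when a number was left out. The cause was not tested; fits without a number have fewer samples and those without a filter include unexpressed genes.

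Directions of genes near 0 changed. With TPM scaling, with and without the block, Psmd11 was 0.0653 and Psme4 0.10, and with TPM scaling without short loci Psmd9 was -0.0259. Leaving out single samples gave -0.0539 to 0.389 for Psmb5, -0.0893 to 0.34 for Psmc3ip, -0.19 to 0.0596 for Psmd11, -0.0944 to 0.24 for Psmd2, -0.078 to 0.153 for Psmd9, -0.211 to 0.145 for Psme4 and -0.0523 to 0.221 for Psmf1. With the block, leaving out a number gave -0.105 to 0.0442 for Psmd11 and -0.15 to 0.23 for Psme4.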
